A study of Mus musculus with 75 samples.

Results

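Acute phase proteins are plasma proteins whose concentration changes during inflammation, and 10 of their genes were followed here through 11 mouse tissues: Saa1, Saa2, Saa3, Saa4, Orm1, Orm2, Hp, Crp, Apcs and Fgb. The members were chosen by gene symbol, with the transcript of the highest mean kept for each, and all 10 were found among the 20680 genes of the tissue table. Each had a single row there. The table of the parabiosis experiment held 3 of the 10 (Saa2, Orm2 and Hp) among 16954 genes.

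The study measured RNA by sequencing in organs of wild-type C57BL/6 mice, 3 aged (22 months) and 3 young (3 months), that had received no treatment and were perfused with PBS before dissection. It also sequenced choroid plexus, the tissue that secretes cerebrospinal fluid, from C57BL/6 mice in parabiosis, which joins the circulations of a pair of animals. Heterochronic animals had a partner of the other age, and isochronic animals one of the same age. Liver was represented by aged mice 1 and 3 and by young mice 1, 2 and 3. Bone marrow and cervical lymph nodes had 3 aged libraries and those of young mice 2 and 3, and each other tissue had 3 of each age. The parabionts were 2 old heterochronic, 3 young heterochronic, 3 old isochronic and 3 young isochronic animals. Old parabionts were aged 22 months and young ones 3 months. A bulk library does not show whether a level differs because fewer cells of a type were present or because each cell held less RNA.

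Most acute phase proteins are made by hepatocytes, which switch their genes on when interleukin 6 acts through the transcription factor STAT3 and interleukin 1 acts through NF-kB and C/EBP factors. Serum amyloid A proteins travel on high-density lipoprotein and are among the most inducible proteins of the mouse. In mice C-reactive protein responds only modestly, and serum amyloid P, the product of Apcs, is the pentraxin that reacts strongly. Serum amyloid A is also made outside the liver: Saa3 in fat cells and macrophages, and Saa1 and Saa2 in the intestinal epithelium.

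Depth was estimated as the summed values of the transcripts kept, 1 per gene, divided by the inferred value of 1 read. It ran from 187826 to 1134770 reads in the 63 tissue libraries and from 534662 to 991997 in the 11 parabiont libraries. Values are the authors' scaled reads per transcript, in which 1 read was worth 0.527 to 2.19 in tissues. Libraries of young mouse 2 stood apart, several of them carrying transcripts of a second organ. The summed value of 15 hepatocyte markers was 11715 in its liver, against 28188 to 37213 in the other 4 livers, and that of 8 thymocyte markers was 2019, against 10.4 to 24.5. All 15 hepatocyte markers were above 0 in its lung library, with a sum of 13585 against 43.6 to 82.5 in the other 5 lungs. The liver of young mouse 1 had a lung epithelium marker sum of 6235, against 42.7 to 128.6 in the other livers. In inguinal lymph nodes, aged mouse 3 had a summed value of 33.2 for lymph node stroma markers, against 1695 to 4748 in the other 5 libraries. Results without young mouse 2 are therefore also given for several tissues and genes. Ranges with each library left out are given at the end for differences that changed sign.

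The promoters of the serum amyloid A genes are shown because Saa1 and Saa2 shared their pattern in liver but stood in another proportion in colon, while Saa3 was distributed differently. Each sequence covers 250 bases before and 50 bases after the annotated start site, 5′ to 3′ on the gene's strand, from RefSeq on GRCm38.p6. Capitals mark matches to TTNNGCAA, the C/EBP motif searched on both strands, at chr7:46742931-46743230 (minus strand) for Saa1, chr7:46751583-46751882 (plus strand) for Saa2 and chr7:46715627-46715926 (minus strand) for Saa3.
Saa1: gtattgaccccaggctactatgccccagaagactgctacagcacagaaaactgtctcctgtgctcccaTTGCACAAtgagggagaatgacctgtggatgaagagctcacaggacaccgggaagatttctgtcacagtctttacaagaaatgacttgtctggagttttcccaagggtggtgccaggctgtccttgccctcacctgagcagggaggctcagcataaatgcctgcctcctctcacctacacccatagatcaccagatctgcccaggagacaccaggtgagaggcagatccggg
Saa2: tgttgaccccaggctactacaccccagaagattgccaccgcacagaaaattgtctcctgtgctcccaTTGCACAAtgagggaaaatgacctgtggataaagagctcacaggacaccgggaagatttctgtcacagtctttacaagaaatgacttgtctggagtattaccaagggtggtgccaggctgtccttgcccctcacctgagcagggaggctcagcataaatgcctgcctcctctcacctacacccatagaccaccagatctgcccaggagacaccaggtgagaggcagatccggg
Saa3: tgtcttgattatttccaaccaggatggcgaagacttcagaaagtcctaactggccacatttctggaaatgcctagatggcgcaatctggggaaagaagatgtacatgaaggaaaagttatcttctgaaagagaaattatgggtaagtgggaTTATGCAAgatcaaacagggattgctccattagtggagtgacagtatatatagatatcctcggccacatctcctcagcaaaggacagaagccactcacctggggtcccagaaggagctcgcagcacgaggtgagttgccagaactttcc
Saa1 and Saa2 lie head to head, and their windows were 95.3% identical, with 287 identical aligned bases, 12 different bases and 2 bases opposite gaps. Both held TTGCACAA, starting 182 bases before the start site in Saa1 and 183 in Saa2. Saa3 held a different match, TTATGCAA, 99 bases before its start, and its window was 50.1% identical to that of Saa1 and 50.0% to that of Saa2. The Saa4 window held 2 C/EBP matches, those of Orm2 and Fgb 1 each, and those of Crp and Apcs none. The motif occurred in 10.8% of the 32851 promoter windows of the table. Of 8 member promoters found in the table, those of Apcs and Fgb held TTCNNNGAA, for STAT factors (8.3% of windows), and those of Orm2 and Crp held TATAAA, the TATA box (13.6%). Of 40-base stretches of the transcripts, 17.7% of those in Saa1 also occurred in Saa2 and 24.2% of those in Orm1 in Orm2, so the split of reads within either pair is uncertain.

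In liver, Saa1, Saa2 and Saa3 were the members with the largest difference between ages. Saa2 rose with age, and Saa1 and Saa3 were higher in both aged livers than in any young liver. Haptoglobin (Hp), which binds free haemoglobin, and Orm2, an orosomucoid that carries lipophilic drugs and hormones in plasma, were also higher in every aged liver, by smaller amounts. Saa4, the constitutive apolipoprotein of the family, Orm1, the pentraxins Crp and Apcs, and Fgb, the beta chain of fibrinogen, overlapped between ages. With limma, 1 of the 10 members passed an adjusted p of 0.05, against 0.0184% of the 10892 genes tested (2 genes), and 3 members and 476 genes had an unadjusted p under 0.05. In 5 of the 10 members every aged liver exceeded every young one, against 10.9% of all genes.

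Saa1 (NM_009117) had values of 1959 and 730.3 in aged livers 1 and 3, against 64.6, 36.0 and 109.7 in young livers 1, 2 and 3. The groups were far apart, the lower aged liver lying several times above the highest young one. The log2 difference was 4.21 (SE 0.606), with an adjusted p of 0.0754 in limma, just above the threshold. Saa2 (NM_011314) had 724.5 and 399.3 in aged livers, against 20.1, 8.91 and 43.9 in young livers. It was higher in both aged livers by log2 4.68 (SE 0.583, limma adjusted p = 0.0287), and within each age the livers ranked alike for both genes. Saa3 (NM_011315), which in mice is made largely outside hepatocytes, was much lower, at 43.2 and 107.5 in aged livers, against 7.43, 16.5 and 19.2 in young livers. Here aged mouse 3, not aged mouse 1, was the higher one, and the log2 difference of 2.27 (SE 0.519) did not pass in limma (adjusted p = 0.579).

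Without young mouse 2, Saa1 (log2 3.81, adjusted p = 0.0149), Saa2 (4.13, adjusted p = 3.39e-05) and Saa3 (2.41, adjusted p = 0.0452) all passed in limma, 3 of 10 members against 0.753% of all genes. With each liver scaled to its hepatocyte markers, Saa1 (3.78, adjusted p = 0.0026) and Saa2 (4.26, adjusted p = 0.000867) passed, against 0.298% of all genes, while the median of all genes moved to -0.33. The Saa2 call was lost in limma without aged liver 1 (adjusted p = 0.155), aged liver 3 (0.0582) or young liver 1 (0.317), and with a pseudocount of the smallest value (0.0871), no filter (0.359) or no trend in the variance (0.941). With 1 aged liver left, that animal is assumed to vary like the young ones.

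**Figure D1:**
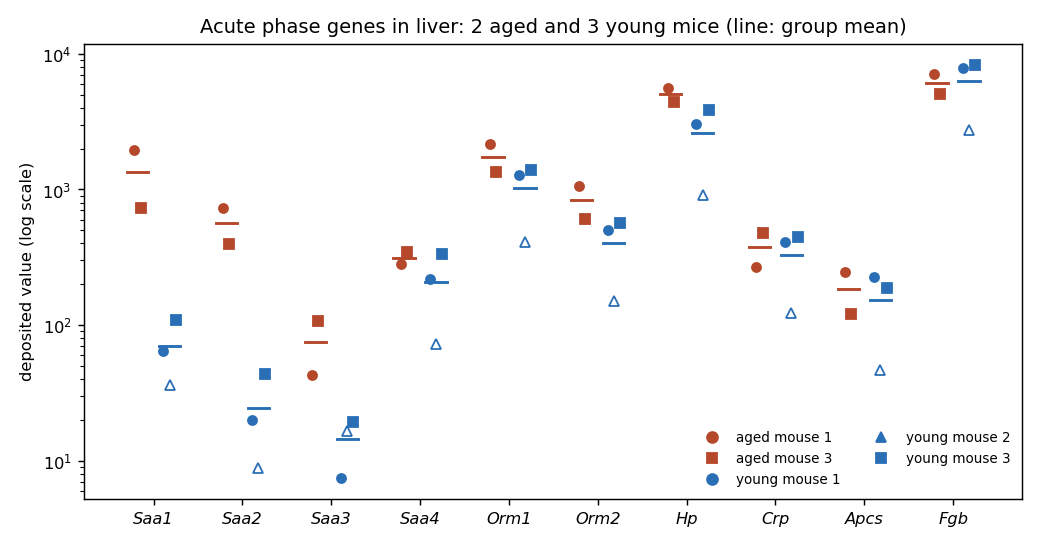
Deposited value (vertical axis, log scale) of the 10 acute phase genes in each liver library, aged livers in red to the left of young livers in blue, with lines at group means. Hollow triangles mark young mouse 2. Saa1 and Saa2 separate the ages, with 730.3 and 399.3 in the lower aged liver against 109.7 and 43.9 in the highest young liver, while Fgb, Crp and Apcs overlap.

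The liver of young mouse 2 was the lowest of the 5 for all 7 remaining members. It was also the lowest for Saa1 (36.0) and Saa2 (8.91), but not for Saa3. Hp (NM_017370) had 5619 and 4450 in aged livers, against 3029, 910.2 and 3882 in young livers (log2 1.18, SE 0.794). Orm2 (NM_011016) had 1069 and 602.2 in aged livers, against 501.6, 150.8 and 565.7 in young livers (1.19, SE 0.676). Both kept aged livers above young ones, but without young mouse 2 the differences were 0.54 for Hp and 0.59 for Orm2, and neither passed in limma (adjusted p = 0.595 and 0.641).

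Orm1 (NM_008768), the other orosomucoid, had 2151 and 1347 in aged livers, against 1289, 411.1 and 1401 in young livers, so aged liver 3 lay inside the young range. Saa4 (NM_011316) had 284.0 and 343.9 in aged livers, against 220.0, 72.6 and 336.1 in young livers. Without young mouse 2 the log2 difference was 0.34 for Orm1 and 0.2 for Saa4. The values of the pentraxins, Crp and Apcs, overlapped between ages as well. Crp (NM_007768), which binds phosphocholine on microbes and dying cells, had 268.8 and 478.4 in aged livers, against 411.7, 123.4 and 447.2 in young livers. Apcs (NM_011318) had 245.3 and 121.3 in aged livers, against 225.9, 46.9 and 186.6 in young livers. Fgb (NM_181849), needed for clotting, had 7080 and 5050 in aged livers, against 7820, 2744 and 8323 in young livers. Its log2 difference of 0.09 turned to -0.43 without young mouse 2, as those of Crp (0.34) and Apcs (0.45) turned to -0.26 and -0.25. None of these values passed in limma.

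Within liver, levels per kilobase of transcript placed Saa1 beside the most abundant members in aged mice and among the scarce ones in young mice. Dividing by length assumes that reads came from the whole transcript, which was not tested. By deposited value, Fgb averaged 6065 and Saa1 1344 in aged livers. Per kilobase, Saa1 lay above Fgb in aged liver 1 (3216 against 1858) and below it in aged liver 3 (1199 against 1325). Aged livers averaged 3743 ± 615 per kilobase for Hp (SD, n = 2), 2256 ± 734 for Orm1, 2208 ± 1426 for Saa1 and 1592 ± 377 for Fgb. Next came Orm2 at 1078 ± 425 and Saa2 at 927.2 ± 380, then Crp, Apcs, Saa4 and Saa3 between 135.7 and 220.4. Orm1 and Saa1 lay within the SD of either gene, as did Orm2 and Saa2, and Fgb lay within the SD of Saa1 but not Saa1 within that of Fgb. Hp lay above Orm1, and Fgb above Orm2, by more than 1 SD of either gene. Among the last 4, neighbours lay within the SD of at least 1 of the pair. Young livers other than young mouse 2 averaged 2569 ± 449 for Hp, 2119 ± 93.3 for Fgb and 1736 ± 102 for Orm1, but 143.2 ± 52.4 for Saa1 and 52.8 ± 27.8 for Saa2 (SD, n = 2). In these young livers Saa1 stood next to Saa4, at 132.8 ± 39.2 per kilobase, within its spread.

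Other positive acute phase genes differed less between ages in liver than Saa1 and Saa2, by log2 1.86 at most. Of 25 other positive acute phase genes, 24 were tested in liver and 21 had a log2 difference above 0, with a median of 0.59 against 0.08 for all genes, and none passed in limma. Without young mouse 2 the split was 12 above and 12 below 0, with a median of 0.01. In that fit Serpina3k, a protease inhibitor, was lower in aged livers (log2 -1.55, adjusted p = 0.00103 in limma). The smallest p-values with all livers belonged to Lcn2, which withholds iron from bacteria, at 225.6 and 98.5 in aged livers against 58.0, 16.5 and 67.2 in young livers, and to Hamp2, a hepcidin gene, at 1900 and 3488 against 1292, 601.4 and 1264. Neither Lcn2 (log2 1.86, adjusted p = 1.0 in limma) nor Hamp2 (1.37, also 1.0) passed.

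Of 11 negative acute phase genes, whose proteins fall in inflammation, 7 had log2 differences above 0 and none passed, with a median of 0.11. The split turned to 2 above and 9 below 0 without young mouse 2 (median -0.4), and also when libraries were scaled on hepatocyte markers (-0.32), and none passed in either fit. Serpina6, the corticosteroid carrier (1.23), and Trf, the iron carrier transferrin (0.71), had the smallest p-values. Of 10 inducing cytokines, 3 were tested and none passed. Il1b was at 33.4 and 3.79 in aged livers, against 5.95, 1.32 and 1.37 in young livers, and Il1a at 4.91 and 1.89 against 11.9, 0.0 and 2.74. Il6 was listed at 0 in every liver except young liver 1 (2.97). Of 26 genes of cytokine receptors and signalling, 24 were tested, 14 had differences above 0 (median 0.15) and none passed. Cebpd, a C/EBP factor, was at 35.3 and 15.2 in aged livers, against 13.4, 3.96 and 13.7 in young livers. Lifr, a receptor chain of the interleukin 6 family, was at 139.3 and 122.5 against 349.2, 145.9 and 422.5, and was lower in aged livers in the fit without young mouse 2 (log2 -1.55, adjusted p = 0.00296 in limma).

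Macrophage markers were on the higher side in aged liver: 9 of 10 were tested, 9 had differences above 0 (median 1.18) and none passed. Their summed value was 2630 and 1071 in aged livers 1 and 3, against 1125, 457.8 and 796.3 in young livers 1, 2 and 3. Vsig4 and Cd68 had the smallest p-values, and Vsig4, a complement receptor of Kupffer cells, was at 169.7 and 60.6 in aged livers against 44.6, 16.5 and 27.4 in young livers. Of 18 receptors and partners of acute phase proteins, 16 were tested, 12 had differences above 0 (median 0.92) and none passed, with Fcgr3, an Fc receptor (1.26), and Cd36, a scavenger receptor (1.36), at the smallest p-values. The part of macrophage content in the Saa differences was not tested. Hepatocyte markers had a median of 0.45 with all livers and -0.03 without young mouse 2.

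**Figure D2:**
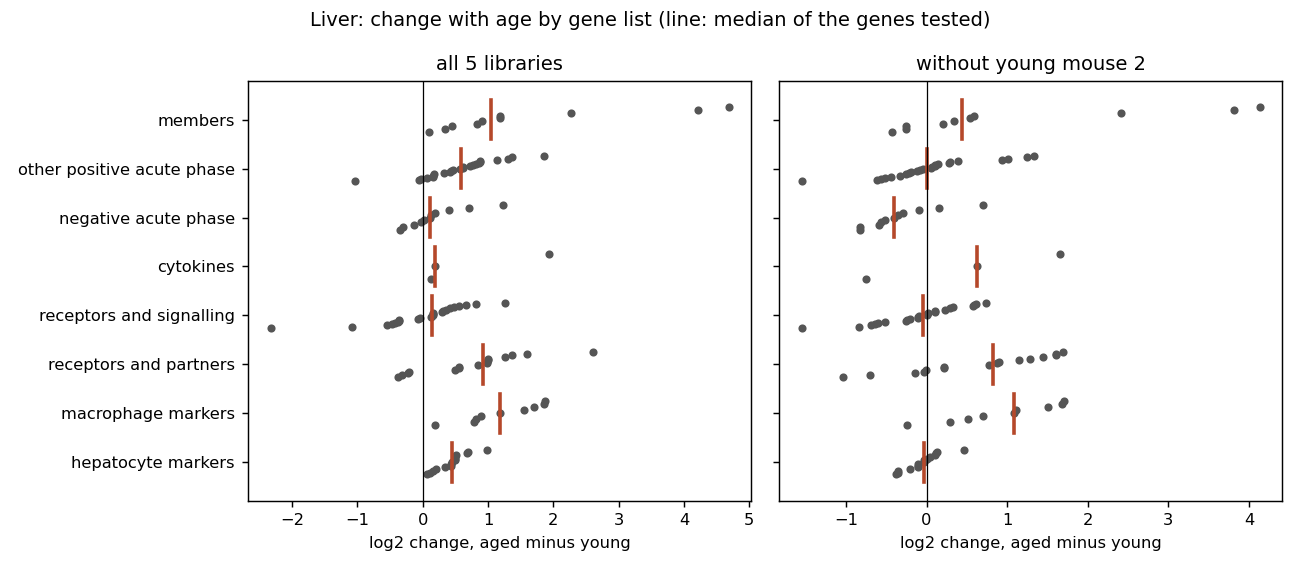
Log2 difference between aged and young livers (horizontal axis) of each tested gene, by gene list, with a red line at the median, for all 5 libraries on the left and without young mouse 2 on the right. The medians of hepatocyte markers (0.45 and -0.03) and other positive acute phase genes (0.59 and 0.01) moved when that library was left out, while Saa1, Saa2 and Saa3 stayed at the far right of the members.

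Outside liver, the members divided into those that were close to absent and those with a source of their own. Saa4, Crp and Apcs were at most 3.14 in every library of the other 10 tissues apart from those of young mouse 2. Leaving out the same mouse, Saa1 was above 6.57 and Saa2 above 3.75 in colon alone among these tissues, and Hp was abundant in lung and bone marrow. Orm1 and Orm2 were present in bone marrow, and Saa3 appeared at low levels in several organs and at a high one in a single lymph node library. Across these 10 tissues 26 tests of members were possible and 2 passed, both in thymus, where 1.14% of 10980 genes passed. In the other 9 tissues the share of genes passing was 0.0484% in bone marrow, 0.295% in cervical, 0% in inguinal and 0.038% in mesenteric lymph nodes, 0.317% in choroid plexus, 0.125% in colon, 0% in hippocampus, 0.00851% in lung and 0.173% in spleen.

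**Figure D3:**
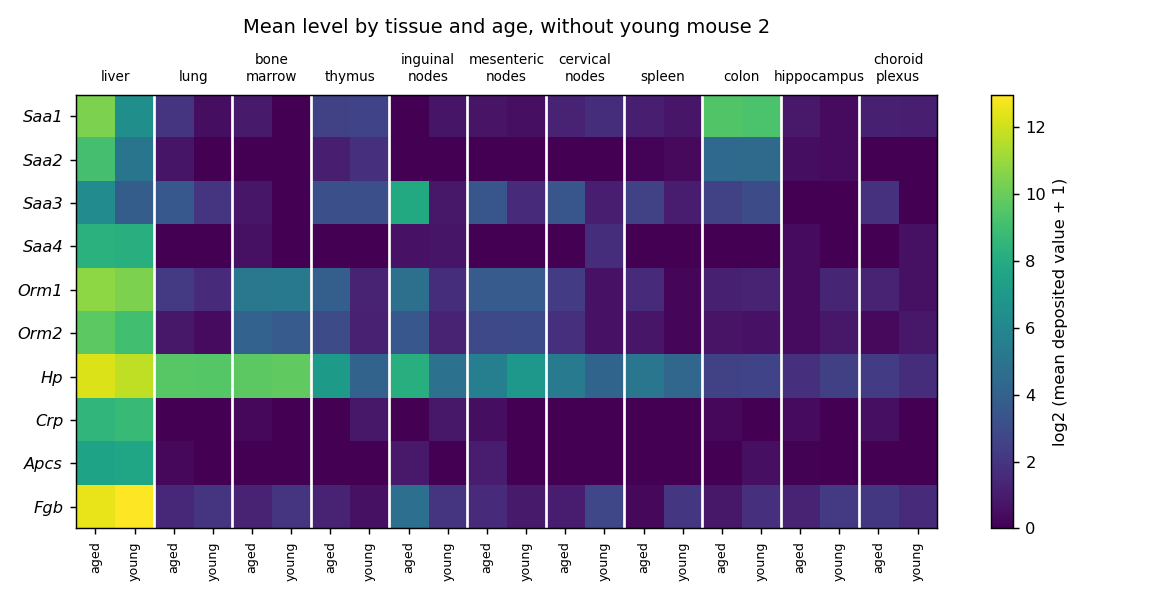
Mean level of the 10 genes (rows) in each tissue and age (columns, aged left of young), as log2 of the mean deposited value plus 1, without young mouse 2; bone marrow and cervical lymph nodes then have 1 young library. Liver is bright throughout, colon for Saa1, and lung and bone marrow for Hp, and the aged inguinal lymph node column for Saa3 rests on 1 library at 701.5.

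Colon held Saa1 at 857.2, 849.8 and 380.3 in aged mice 1, 2 and 3, against 515.0, 755.0 and 767.2 in young mice 1, 2 and 3. The groups overlapped, with the lowest value in aged mouse 3, and the log2 difference was -0.04 (SE 0.286, limma adjusted p = 0.977). Saa2 had 24.5, 24.8 and 11.6 in aged colon, against 18.4, 28.1 and 23.9 in young colon (log2 -0.26, SE 0.32), and it was lowest in the same animal. Saa3 was low, at 2.22, 6.4 and 5.44 in aged colon against 9.97, 5.5 and 3.91 in young colon. Hp, at 1.22 to 8.79, was also near the floor in colon, and the other 6 members did not reach the level needed for a test. The Hp difference was log2 0.25 with young mouse 2 and -0.25 without it, and neither passed in limma (adjusted p = 0.91 and 0.92).

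The composition of serum amyloid A transcripts differed between the organs. The ratio of Saa1 to Saa2 was 31.5 ± 3.38 in colon (SD, n = 6, range 26.8 to 35.0) and 2.86 ± 0.827 in liver (SD, n = 5, range 1.83 to 4.04). In each of the 5 mice with both organs the colon ratio was higher, by log2 3.48 ± 0.56 (SD, n = 5). An exact two-sided sign-flip test gave p = 0.0625, the smallest that 5 pairs allow. The ratio in mesenteric lymph nodes of young mouse 2 was 26.9, in a library with a colon epithelium marker sum of 8223, against 21.4 to 70.8 in the other 5. There Saa1 stood at 326.1, against at most 1.17 in the other mesenteric libraries. In the lung of young mouse 2, which carried hepatocyte markers, the ratio was 3.44.

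The change with age of Saa1 and Saa2 also differed between liver and colon. In a limma fit of both tissues with the mouse as a term, the age difference in liver exceeded that in colon by log2 4.44 for Saa1 (SE 0.51, adjusted p = 0.0233) and 5.12 for Saa2 (SE 0.648, adjusted p = 0.0319). These were 2 of 10 members, against 0.0156% of 12844 genes, and no other gene passed. This contrast was chosen after the values were seen. In the same fit neither gene passed without aged mouse 1 (adjusted p = 0.863 for both), aged mouse 3 (0.688 and 0.934) or young mouse 1 (0.149 for both), with no trend (0.945 for both) or with the smallest value as pseudocount (0.167 and 0.253).

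**Figure D4:**
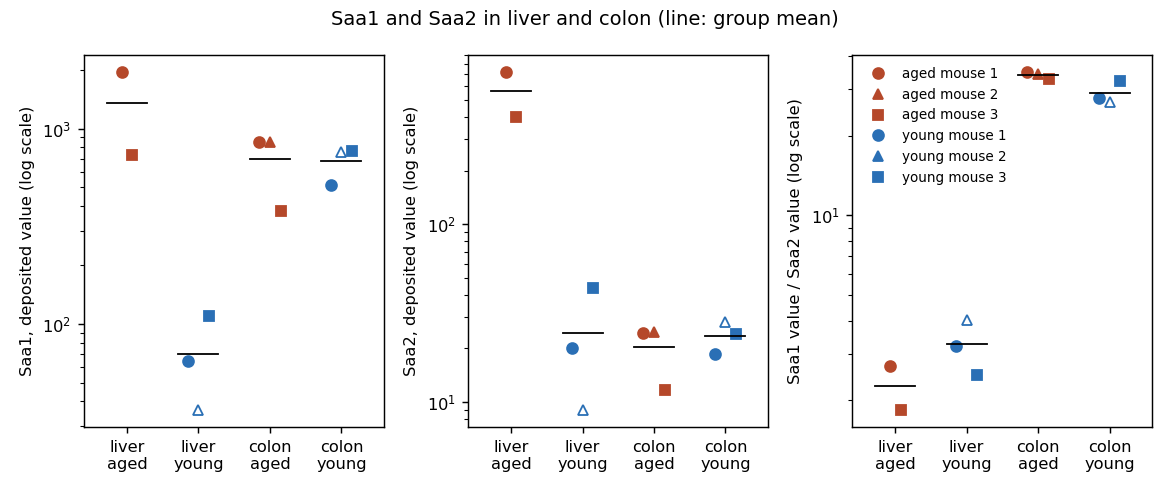
Saa1 (left), Saa2 (centre) and the ratio of Saa1 to Saa2 (right) in each liver and colon library, on log scales, with aged mice in red left of young mice in blue and black lines at group means; the hollow triangle is young mouse 2. Saa1 in colon (380.3 to 857.2) shows no split by age, and the ratio is 26.8 to 35.0 in colon and 1.83 to 4.04 in liver.

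Saa3 was followed in lung as well. It had 9.72, 1.04 and 22.2 in aged lungs 1, 2 and 3, against 1.76, 3.06 and 4.04 in young lungs 1, 2 and 3, so that 2 aged lungs were above and 1 below all young ones. The log2 difference was 1.07 (SE 0.796, limma adjusted p = 0.667). The 22.2 of aged lung 3 corresponded to 25 reads and the 1.04 of aged lung 2 to 1 read. In spleen Saa3 had 9.25, 1.26 and 3.6 in aged mice, against 1.06, 0.0 and 0.982 in young mice, under the level needed for a test. It was 0 in all 6 hippocampus libraries. Hp in spleen had 26.4, 34.0 and 39.6 in aged mice, against 15.9, 361.7 and 20.6 in young mice, the outlying value in the library of young mouse 2. That library had a lung epithelium marker sum of 37472, against 39.8 to 92.1 in the other 5 spleens. The Hp difference was log2 -0.59 with it and 0.83 without it, and neither passed in limma (adjusted p = 0.917 and 0.381).

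Hp in lung had 755.2, 935.0 and 619.6 in aged mice, against 748.3, 1369 and 772.3 in young mice, and the ages overlapped (log2 -0.28, SE 0.306, limma adjusted p = 0.761). The high value belonged to young mouse 2, whose lung carried hepatocyte transcripts. That library also had Fgb at 3182, against 0.808 to 5.29 in the other 5 lungs, Orm1 at 474.4 against 0.0 to 9.76, Crp at 143.8 against 0, and Saa4 at 84.2 against 0. Without it, lungs averaged 766.1 ± 112 for Hp (SD, n = 5), while their hepatocyte marker sums were 43.6 to 82.5, against 28188 to 37213 in livers outside young mouse 2.

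Bone marrow, where neutrophils are made, held Hp at 760.9, 1018 and 685.0 in aged mice, against 608.6 and 909.9 in young mice 2 and 3. Orm1 had 32.7, 40.2 and 34.3 in aged marrow, against 17.7 and 37.2 in young marrow, and Orm2 had 15.4, 21.3 and 10.3, against 7.89 and 12.4. The ages overlapped for all 3 genes, and the log2 differences, 0.12 for Hp, 0.46 for Orm1 and 0.56 for Orm2, did not pass in limma (adjusted p = 0.958, 0.848 and 0.859). Leaving out young mouse 2 leaves 1 young library, and the differences were then -0.17 for Hp, -0.06 for Orm1 and 0.26 for Orm2. The neutrophil marker sum of these libraries was 68619 to 91780, with at most 2085 in any other tissue. In order of level, Hp stood at 4245 ± 1087 in liver (SD, n = 4 without young mouse 2), 843.4 ± 149 in bone marrow (n = 4) and 766.1 ± 112 in lung (n = 5), the last of these within the spread of marrow. Inguinal lymph nodes averaged 179.8 ± 351 (n = 5), a mean carried by 1 library at 807.3, with a median of 18.3. The remaining tissues, again without young mouse 2, averaged 87.4 ± 65.1 in thymus down to 3.22 ± 2.62 in choroid plexus.

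In thymus, Hp and Orm1 rose with age. Hp had 136.0, 122.7 and 144.9 in aged thymus, against 11.9, 39.4 and 21.4 in young thymus, and the groups were well apart (log2 2.59, SE 0.329, limma adjusted p = 0.00229). Orm1 had 18.3, 15.3 and 8.99 in aged thymus, against 1.32, 4.17 and 1.34 in young thymus (log2 2.36, SE 0.505, limma adjusted p = 0.038). Orm2, at 8.51, 8.76 and 4.0 in aged thymus against 2.31, 1.51 and 0.268 in young thymus, was higher in every aged mouse but did not pass (log2 1.94, SE 0.65, limma adjusted p = 0.178). These 3 of the 5 members tested kept all aged values above all young ones, against 11.5% of genes. Saa3, at 8.61, 6.57 and 8.99 in aged thymus against 3.96, 13.3 and 12.3 in young thymus, overlapped, as did Saa1 at 3.0 to 6.57 in aged thymus and 3.96 to 6.42 in young thymus.

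The Hp call held in limma without each library in turn (adjusted p at most 0.024), but not with no trend (0.111). The Orm1 call was lost when any aged library, young library 1 or young library 3 was left out (adjusted p up to 0.162), and under 5 of 7 other settings, with an adjusted p of 0.0543 to 0.114. Without young mouse 2 the log2 differences were 3.01 for Hp and 2.77 for Orm1 (limma adjusted p = 1.41e-05 and 0.0096).

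Markers of fat cells were also higher on average in aged thymus, but their sum overlapped between ages, while Hp and Orm1 did not. Their summed value in thymus was 3170, 1803 and 3765 in aged mice, against 462.0, 2437 and 526.3 in young mice, all 10 had log2 differences above 0 (median 2.08, against 0.01 for all genes), and 4 passed in limma. These were Lipe, a lipase of fat cells (2.45, adjusted p = 0.000896), Adrb3, the beta-3 adrenergic receptor (2.64, 0.00229), Lep, the satiety hormone (3.85, 0.0122), and Plin1, which coats lipid droplets (2.38, 0.0166). Young mouse 2 had a higher sum than aged mouse 2, but lower Hp (39.4 against 122.7) and Orm1 (4.17 against 15.3). Without young mouse 2, whose thymus had the high young sum of 2437, 9 of the 10 fat cell markers passed (median 2.64). In that fit 258 of all 10980 genes passed. Neutrophil markers summed to 254.0, 449.7 and 290.5 in aged thymus, against 313.1, 483.1 and 250.8 in young thymus. Most of that sum was Elane, a protease of granulocyte precursors, at 211.5, 252.6 and 209.5 in aged thymus, against 275.4, 433.0 and 213.9 in young thymus. Elane was also at 138.7 to 233.7 in the livers, where Mpo, another of these markers, was at most 2.94. The sum therefore says little about the other neutrophil markers. Of the 10 neutrophil markers 7 were tested, 6 had differences above 0, all but Elane at -0.39 (median 1.17), and none passed in limma. Of 25 other positive acute phase genes, 11 were tested in thymus, 10 had differences above 0 (median 1.12) and 2 passed, the metallothioneins Mt2 (1.53, adjusted p = 0.0152) and Mt1 (1.12, 0.0367). Without young mouse 2, 6 of the 11 passed (median 1.27), in the fit where 258 of all genes passed. The part of fat tissue or neutrophils in the rise of Hp and Orm1 was not tested.

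The same markers varied among lymph node libraries. In inguinal nodes, the library of aged mouse 3 had a fat marker sum of 25028, against 147.1 to 2701 in the other 5, and held Saa3 at 701.5, Hp at 807.3, Orm1 at 77.5, Orm2 at 28.8 and Fgb at 73.8. The other aged inguinal libraries had Saa3 at 4.46 and 4.08, against 1.52, 0.0 and 0.0 in young mice, and Hp at 17.8 and 18.3, against 50.1, 44.0 and 5.31. The level of 701.5 was the highest of Saa3 in any library, above 107.5 in the higher aged liver. In mesenteric nodes the fat-rich library was that of young mouse 3, with a marker sum of 12297 and Hp at 222.4, but with Saa3 at 2.93. Both libraries were thus high in Hp, and the young one was low in Saa3.

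**Figure D5:**
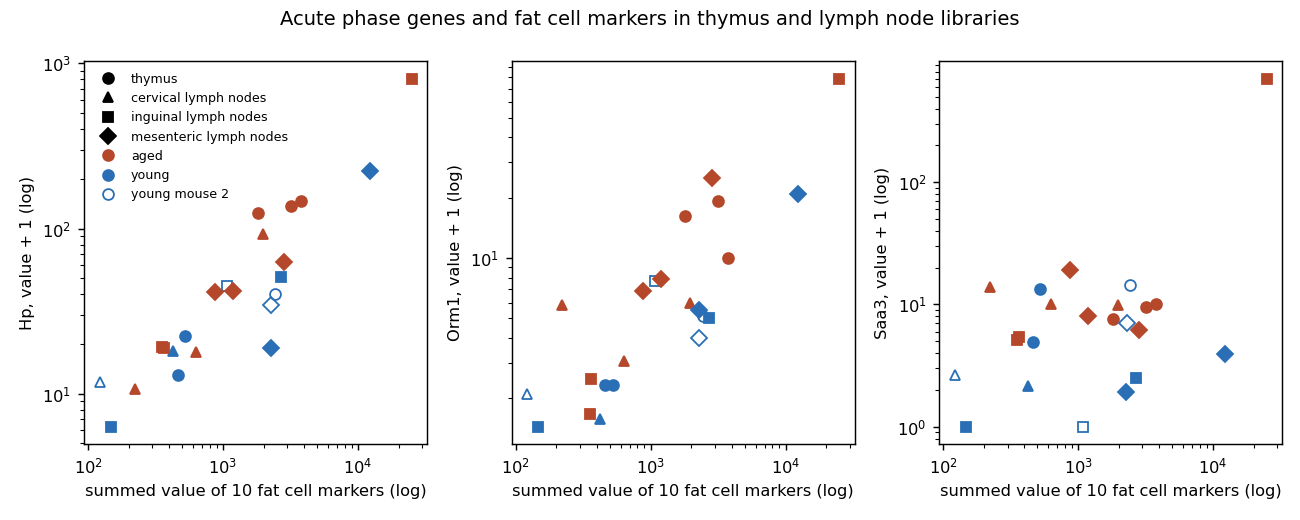
Value plus 1 of Hp (left), Orm1 (centre) and Saa3 (right) against the summed value of 10 fat cell markers in each thymus and lymph node library, on log axes; symbols give the tissue, red aged and blue young mice, hollow symbols young mouse 2. The libraries with the highest fat marker sums, 25028 in an aged inguinal and 12297 in a young mesenteric library, also have the highest Hp values (807.3 and 222.4), whereas their Saa3 values are 701.5 and 2.93.

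Saa3 was higher in aged than in young cervical lymph nodes, at 8.87, 12.8 and 9.0 in aged mice 1, 2 and 3 against 1.66 and 1.14 in young mice 2 and 3. The difference of log2 2.17 (SE 0.599) did not pass in limma (adjusted p = 0.248), and the aged values rest on 8 to 12 reads a library. Orm1 was also higher in all aged cervical nodes, at 4.99, 4.81 and 2.06 against 1.11 and 0.569, while Fgb was lower in all of them. Of the 4 members tested there, 2 had every aged value above and 1 every aged value below the young ones, against 13.4% and 10.7% of genes. In mesenteric nodes Saa3 had 18.2, 5.14 and 7.04 in aged mice, against 0.936, 6.06 and 2.93 in young mice (log2 1.39, SE 0.613, limma adjusted p = 0.544). Without young mouse 2, at 6.06, every aged value lay above both young ones, and the difference of log2 1.85 did not pass either (limma adjusted p = 0.465).

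The genes whose level followed Saa3 most closely over the 52 tissue libraries outside young mouse 2, by Spearman correlation of log2 values among 12859 genes, were Gstt2 (0.784), Car3 (0.738), Sdc1 (0.698), Pck1 (0.694) and Cyp2e1 (0.693). Gstt2 is a glutathione transferase, Car3 a carbonic anhydrase and Pck1 a gluconeogenic enzyme. These are descriptions over libraries that share mice and tissues.

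In choroid plexus, no member reached the level needed for a test. Hp had 0.0, 4.89 and 6.71 in aged mice, against 2.0, 2.76 and 2.51 in young mice, and Saa3 was above 0 in aged mouse 1 alone, at 7.68. In hippocampus Hp alone was tested, at 0.0, 0.0 and 7.09 in aged mice against 3.1, 22.2 and 6.07 in young mice, and its log2 difference of -2.08 (SE 0.935) did not pass in limma (adjusted p = 0.88). It was -1.39 without young mouse 2, whose hippocampus had a neuron marker sum of 2255 against 7905 to 9567 in the other 5.

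The choroid plexus of parabionts gave the same picture of low levels. Hp had 2.25 and 7.39 in old heterochronic animals, 2.32, 1.99 and 0.0 in young heterochronic animals, 0.961, 0.852 and 0.909 in old isochronic animals and 1.03, 0.0 and 0.825 in young isochronic animals. The highest of these, 7.39, corresponded to 5 reads, and the others to at most 2. Orm2 was at 0.0 in both old heterochronic animals and at 0.0, 0.997 and 1.01 in young heterochronic animals. It had 2.88, 1.7 and 1.36 in old isochronic animals and 0.516, 0.0 and 0.0 in young isochronic animals, on at most 3 reads. Saa2 was at most 2.01, with Saa2 above 0 in 2 young heterochronic animals alone. None of the 3 passed the filter on low values, so no comparison between these groups was tested.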

How the data were processed

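The deposited values are a signal: per the submitters' processing notes the authors aligned reads with TopHat to mm9, and judged from the values themselves each is a weighted number of reads on a RefSeq transcript after a single scaling of the library. How reads were counted and scaled is not given in the sources used here. Between 71.4% and 85.3% of tissue values above 0, and 84.5% to 86.8% of parabiont values, were whole multiples of the value of 1 read (tolerance 0.001), so read counts were not recovered and limma was used as the planned substitute for a count model. Values are not per length.

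Transcripts (25865 and 21781) were reduced to the one with the highest mean per gene, which gave 20680 and 16954 genes. Each tissue was fitted alone with limma 3.58.1 in R 4.3.3 (trend, robust) on log2 values after adding a pseudocount worth 1 read, so differences of low genes are understated. Genes entered the test when the number of libraries over 4 times the pseudocount was no smaller than the smaller group, and passed at a Benjamini-Hochberg adjusted p of 0.05 over all genes tested. The procedure was tested on simulated livers, none of which alone carried transcripts of a second organ. That test does not cover such libraries. The 11 parabiont libraries entered 1 fit. Alternatives were other pseudocounts, no filter, quantile, median-of-ratios and hepatocyte marker scaling, no trend, a replicate block and leaving out each library.

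Of 75 labelled samples, 74 were analysed. The column of 1 cervical lymph node library matched no listed sample and was not used, and bone marrow of young mouse 1 was not analysed here. Numbers name separate mice, so p-values reflect the spread between libraries of different mice. That spread includes any transcripts of a second organ in a library. In liver, the SE with and without young mouse 2 was 0.794 and 0.251 for Hp, and 0.803 and 0.246 for Fgb.

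Members and gene lists were chosen with earlier results of these data known. Members are always named. Of each other list in liver, up to 4 genes that passed are named, or else the 2 with the smallest p. The 5 genes most like Saa3 come from those ranked after a filter on low values. Genes named in thymus, and the contrast of liver with colon and the Saa1 to Saa2 ratio, were chosen after their values were seen.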

Additional observations from a re-analysis of the deposited data

Results flagged for a closer look

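The change with age of 2 members differed between liver and colon in a test of the difference itself, which was added after the values were seen. The liver difference exceeded the colon difference by log2 4.44 for Saa1 and 5.12 for Saa2. Saa1 had 1959 and 730.3 in aged livers against 64.6, 36.0 and 109.7 in young livers, and 857.2, 849.8 and 380.3 in aged colon against 515.0, 755.0 and 767.2 in young colon. The liver arm rests on 2 aged animals. Groups here hold at most 3 libraries, so single libraries were not screened for outlying values.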

How the results depend on the processing

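In liver, 1 member passed in limma. The number was 0 with the smallest value as pseudocount, with no filter and with no trend, 2 with quantile, median-of-ratios or hepatocyte marker scaling, and 0 to 3 when 1 library was left out. Genes passing in liver numbered 2, against 1 with the smallest value as pseudocount, 1 with no filter, 25 with quantile normalization, 32 with hepatocyte marker scaling, 0 with no trend, and 1 to 82 with 1 library left out, the 82 without young mouse 2. Member tests passing in the other 10 tissues numbered 2, against 1 with the smallest value as pseudocount, no filter, quantile or median-of-ratios scaling, 0 with no trend, and 1 to 2 with 1 library left out. Same-numbered aged and young mice are different animals and no tissue with 3 pairs had every correlation of deviations above 0.1. In cervical lymph nodes, which have pairs 2 and 3 only, both were above it (0.14 and 0.13). The replicate block, which leaves 1 residual degree of freedom in liver, gave 3 members and 229 genes there and 2 member tests elsewhere. No paired analysis was possible for parabionts because their numbers are not shared between groups.

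Some differences, none of which had passed, changed sign. In liver Crp was -0.09 and Fgb -0.35 with hepatocyte marker scaling, and the block gave -0.26 for Crp, -0.25 for Apcs, -0.43 for Fgb and -0.08 for Hp in cervical nodes. Hp in lung was 0.03 with quantile normalization. With 1 library left out, liver values ran from -0.26 to 0.75 (Crp), -0.25 to 0.96 (Apcs) and -0.43 to 0.37 (Fgb), and in bone marrow from -0.06 to 0.97 (Orm1) and -0.17 to 0.41 (Hp). Colon ran from -0.23 to 0.35 (Saa1), -0.44 to 0.09 (Saa2) and -0.25 to 0.63 (Hp), thymus from -0.34 to 0.14 (Saa1) and -0.63 to 0.15 (Saa3), and lung from -4.19 to 0.18 (Orm1). For Hp the ranges were -0.08 to 1.47 in cervical, -0.36 to 2.34 in inguinal and -0.87 to 0.91 in mesenteric nodes and -1.39 to 0.83 in spleen, and for Orm1 -0.07 to 1.24 in mesenteric nodes. The cause was not tested. In all, 409 of 476 alternative values kept direction and call. The value of 1 read, up to 2.19, limits levels in choroid plexus and lymph nodes, and liver has 2 aged animals.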
